A study of Mus musculus with 4 samples.

Results

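The Kruppel-like factors (Klf genes) are transcription factors that bind GC-rich and CACC-type DNA through zinc fingers at their C-terminal ends, and they form 1 superfamily with the Sp factors. Family members differ in the protein partners they recruit, so some act mainly as activators and others as repressors. In blood, Klf1 drives the erythroid programme, Klf4 is best known from monocytes and from the reprogramming of somatic cells, and Klf2 keeps T lymphocytes resting and in circulation. The 9 genes described here are Klf2, Klf3, Klf4, Klf6, Klf7, Klf9, Klf10, Klf12 and Klf13, out of 24411 gene symbols in the tables. They were picked by name, with their levels in these cells already known, to describe which of them haematopoietic stem cells (HSC) express and whether Klf6 moves with Klf2 and Klf4 across cells and genotypes. Their levels and their differences between genotypes are therefore given as descriptions.

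HSC sorted from mouse bone marrow were compared between Mat KO animals, with 2 libraries of 44 and 48 cells, and wild-type (WT) animals, with 2 libraries of 48 cells each. The series title places the study at the imprinted Dlk1-Gtl2 locus and its snoRNAs. The labels give no strain, age, sex or sort gate, and leave unstated what Mat KO deletes there and whether separate animals stand behind each library. All p-values therefore measure the spread between libraries only. Sorted cells were picked by hand and their RNA was copied by a form of STRT-seq. Its oligo-dT primer gives each cDNA 1 barcode for the cell and 1 for the molecule (unique molecular identifier, UMI) at the 3′ end. Because a transcript is tagged at its 3′ end whatever its length, UMIs were scaled only by the library's total, as CPM (UMIs per 1000000 UMIs of all genes), and not by length.

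Cells with at least 1000 detected genes were used, 188 in all. They held 1900319 and 1768647 UMIs in the Mat KO libraries, against 3183279 and 3253608 UMIs in the WT libraries, so WT cells were read more deeply. The threshold left out 4 barcodes, all of Mat KO 1, the richest of them with 769 genes and 3 UMIs of the 9 genes, while the poorest kept cell of that library had 1134 genes and also 3 such UMIs. The 48 barcodes of each library that held no cell carried 0 to 3 UMIs of the 9 genes per library. All 16 genes of a long-term HSC list, among them Hlf, Mecom and Procr, were detected in every library. Cells in which genes of a mature blood lineage passed a limit (granulocyte or monocyte, B-lymphoid, T or NK, erythroid, mast or basophil) numbered 17 and 7 in the Mat KO libraries, against 7 and 7 in the WT libraries. Of these, 10 and 3 were granulocyte or monocyte cells in the Mat KO libraries, against 2 and 3 in the WT libraries. The granulocyte or monocyte list summed to 36575 and 5938 CPM in the Mat KO libraries, against 7333 and 3545 CPM in the WT libraries, so it was high in Mat KO 1. The other 150 cells are called lineage-low here. The limits were set after the shares had been seen. Some genes of the long-term HSC list were sparse. Slamf1 was seen in 7 and 2 lineage-low cells of the Mat KO libraries, against 5 and 10 of the WT libraries. Hoxb5 was seen in 2 and 2 such cells, against 3 and 2, and Hlf in 26 and 39, against 41 and 37.

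The sequences just upstream of Klf6, Klf2 and Klf4 are shown because these 3 genes carry the main comparison. They come from the RefSeq promoter table of build GRCm38.p6, which matched 8 of the 9 genes, all but Klf10. Each runs 5′ to 3′ on the gene's strand and ends before the annotated transcript start. In the GENCODE annotation of GRCm38 the genes lie at chr13:5861482-5870394 (Klf6), chr8:72319033-72321656 (Klf2) and chr4:55527143-55532466 (Klf4). None of the 3 shares exon bases with another annotated gene, while Klf3 does with Gm20033 and Klf7 with Gm13748 and Gm26649, which have no row in the tables. Capitals mark the GC box (GGGCGG, or CCGCCC where it lies on the other strand), the class of element that Sp and Kruppel-like factors bind, and, in Klf2, a match to the MEF2 motif.
Klf6 chr13:5861239-5861481, plus strand: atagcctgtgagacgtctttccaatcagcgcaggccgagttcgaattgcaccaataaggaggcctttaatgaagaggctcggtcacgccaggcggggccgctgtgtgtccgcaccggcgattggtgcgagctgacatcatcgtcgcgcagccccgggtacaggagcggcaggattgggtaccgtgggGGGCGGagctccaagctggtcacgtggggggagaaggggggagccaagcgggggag
Klf2 chr8:72318812-72319032, plus strand: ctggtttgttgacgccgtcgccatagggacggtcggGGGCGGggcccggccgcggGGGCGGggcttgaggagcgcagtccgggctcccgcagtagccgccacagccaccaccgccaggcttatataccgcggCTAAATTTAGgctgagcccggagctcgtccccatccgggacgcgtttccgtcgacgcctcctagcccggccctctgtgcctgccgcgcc
Klf4 chr4:55532476-55532725, minus strand: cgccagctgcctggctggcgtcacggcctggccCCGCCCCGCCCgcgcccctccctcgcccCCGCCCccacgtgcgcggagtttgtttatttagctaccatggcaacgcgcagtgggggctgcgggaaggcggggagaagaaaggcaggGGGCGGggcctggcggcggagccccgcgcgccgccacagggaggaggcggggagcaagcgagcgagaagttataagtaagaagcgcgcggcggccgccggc

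The Klf6 stretch held 1 GC box, the Klf2 stretch 2 and the Klf4 stretch 4, of which the first 2 share 1 base. A GC box, searched on both strands, was present within 250 bases upstream of the start in 32.7% of the 32851 promoters in the table and in 6 of the 8 matched Klf genes. The MEF2 motif was found upstream of Klf2 alone among the 8, 108 bases before the RefSeq start, and in 2.92% of all promoters. MEF2 proteins are known to act on Klf2 downstream of the kinase ERK5 in endothelial and lymphoid cells. The cyclic AMP response element core TGACGTCA was in none of the 8 and in 1.55% of all promoters, and the CArG box of serum response factor was in none of the 8 and in 1.47%. The CACC box CCACCC was in 4 of the 8, none of them Klf6 or Klf4, and in 28.1% of all promoters. In Klf2 it lay in the 250-base window but outside the stretch printed above. These letter matches are descriptions and not binding sites.

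Klf6 had the highest level of the family. It reached 729 and 677 CPM in the Mat KO libraries, against 363 and 308 CPM in the WT libraries. The Mat KO libraries both lay above the WT libraries, and the mean was 703 ± 36.4 CPM in Mat KO and 336 ± 39.0 CPM in WT (SD, n = 2 each). Klf6, a widely expressed activator that is induced by injury and acts in macrophages and endothelium, was detected in 41 of 44 and 44 of 48 Mat KO cells, against 44 of 48 cells in each WT library. That is 92.0% of all 188 cells, the largest share of any Klf gene. In Mat KO 1 the exact 95% binomial interval of its share was 81.3 to 98.6%, and in each of the other 3 libraries 80.0 to 97.7%. These intervals cover counting error only.

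Klf13 and Klf4 followed. Klf13, a repressor that recruits the Sin3a complex, had 414 and 629 CPM in the Mat KO libraries, against 253 and 296 CPM in the WT libraries, and was seen in 165 of the 188 cells. Klf4 had 416 and 515 CPM in the Mat KO libraries, against 373 and 196 CPM in the WT libraries, and was seen in 163 cells. For both genes the Mat KO libraries lay above the WT libraries, but for Klf4 the lower Mat KO value and the higher WT value were close.

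Klf10, an early gene of TGF-beta signalling, had 301 and 352 CPM in the Mat KO libraries, against 369 and 193 CPM in the WT libraries, so the genotypes overlapped. Klf9, a second Sin3a-binding repressor that glucocorticoids induce in many tissues, had 118 and 240 CPM in the Mat KO libraries, against 105 and 83.6 CPM in the WT libraries. Klf2 had 180 and 97.8 CPM in the Mat KO libraries, against 188 and 66.1 CPM in the WT libraries. The spread of Klf2 within each genotype was larger than the gap between genotypes. It was seen in 106 cells, 25 and 22 of them in the Mat KO libraries and 33 and 26 in the WT libraries.

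The remaining 3 genes were sparse. Klf3, a repressor that binds CtBP, had 60.0 and 39.6 CPM in the Mat KO libraries, against 17.3 and 32.3 CPM in the WT libraries. Klf7, best known from neuronal development, had 15.3 and 10.7 CPM in the Mat KO libraries, against 3.77 and 8.91 CPM in the WT libraries, from 12 to 29 UMIs per library. Klf12, another CtBP-binding repressor, had only 5 and 4 UMIs in the Mat KO libraries, against 42 and 43 UMIs in the WT libraries, and was detected in 19 of 188 cells. Of the WT UMIs of Klf12, 1 cell held 21 in WT 1 and another 19 in WT 2.

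**Figure D1:**
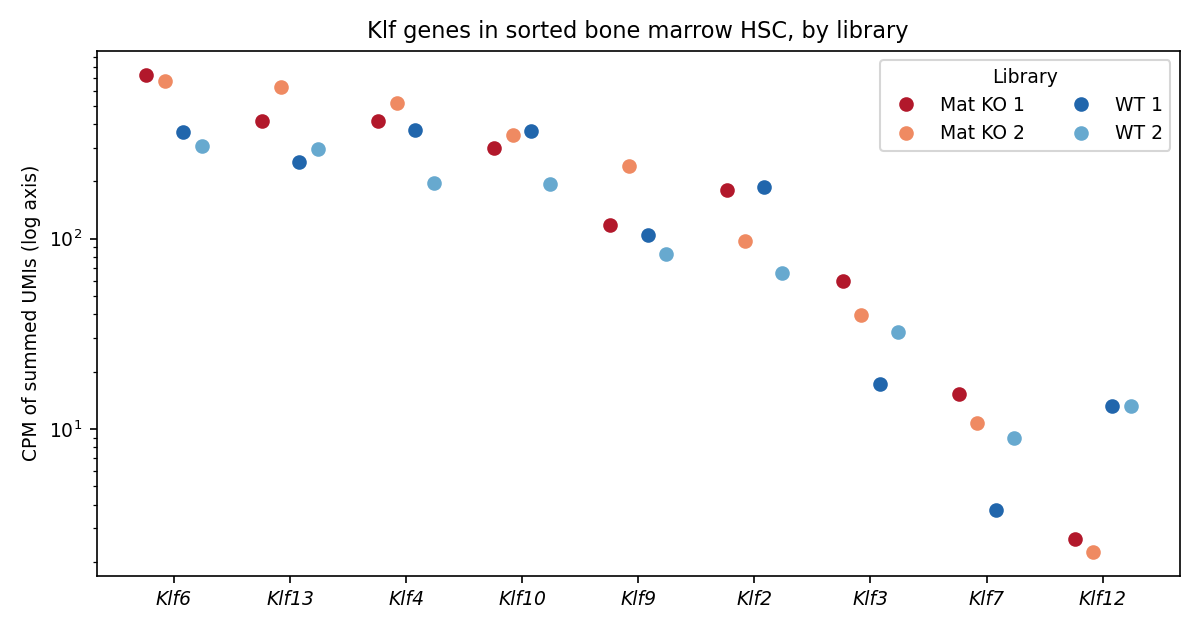
CPM of the 9 Klf genes in each library (log axis), from UMIs summed over kept cells, with Mat KO libraries left of WT libraries. Points are single libraries. Klf6 is at 729 and 677 CPM in the Mat KO libraries and at 363 and 308 CPM in the WT libraries, while Klf10 and Klf2 overlap between genotypes.

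The order of levels by the mean over the 4 libraries was Klf6 (519 CPM), Klf13 (398 CPM), Klf4 (375 CPM), Klf10 (304 CPM), Klf9 (137 CPM), Klf2 (133 CPM), Klf3 (37.3 CPM), Klf7 (9.67 CPM) and Klf12 (7.83 CPM). Between libraries the ranges of neighbours from Klf6 down to Klf2 overlapped, as did those of Klf7 and Klf12. Within a library, Klf6 was above Klf13, Klf4 above Klf10, Klf10 above Klf9, Klf2 above Klf3 and Klf3 above Klf7 in 4 of 4, though Klf4 and Klf10 were within a few CPM of each other in both WT libraries. Klf13 and Klf4, Klf9 and Klf2, and Klf7 and Klf12 changed places between libraries. Klf6 was first in both Mat KO libraries and in WT 2, while in WT 1 Klf4 and Klf10 stood slightly above it. The 9 genes held 2235 and 2563 CPM together in the Mat KO libraries, against 1686 and 1197 CPM in the WT libraries. Klf6 made up 31.8% and 25.9% of all Klf UMIs in the Mat KO libraries, against 20.8% and 23.6% in the WT libraries.

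The choice of the 9 genes does not follow level strictly. Klf11 (30.5 CPM), Klf16 (16.1 CPM) and Klf8 (8.26 CPM), which were not among the 9, had means above that of Klf12, and Klf5 averaged 4.54 CPM. Klf1 had 19 and 0 UMIs in the Mat KO libraries, against 0 and 132 UMIs in the WT libraries, and 116 of those in WT 2 were in its 7 lineage-marker cells, 3 of which were erythroid. Klf14, Klf15 and Klf17 had no UMI in any kept cell, which at 3 counts allows up to 1.58 and 1.70 CPM in the Mat KO libraries and up to 0.942 and 0.922 CPM in the WT libraries. Of the related Sp genes, Sp3 (104 CPM) and Sp1 (92.6 CPM), which are near-ubiquitous factors, had means below that of Klf2, but both were above Klf2 in WT 2 and Sp3 also in Mat KO 2.

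A few cells held much of the signal. In Mat KO 1, 1 lineage-low cell gave 31.2% of the Klf6 UMIs of its library, as well as 25.5% of Klf10. The leading Klf6 cell gave 15.5% in Mat KO 2, against 18.8% in WT 1 and 32.8% in WT 2. For Klf2 the leading cell gave 23.4% and 47.4% in the Mat KO libraries, against 38.6% and 14.0% in the WT libraries, which is more than for Klf6 in Mat KO 2 and WT 1 and less in the other libraries. With the leading cell of each gene removed from its library, Klf6 had 501 and 572 CPM in the Mat KO libraries, against 295 and 207 CPM in the WT libraries. These values still do not overlap. The leading cells of Mat KO 1 and WT 2 carry the same barcode position, but their profiles across genes were not alike (Pearson r = 0.0841).

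The median cell shows the same order between genotypes for Klf6. It had 359 and 615 CPM in the Mat KO libraries, against 255 and 191 CPM in the WT libraries. The median cell had 328 and 290 CPM of Klf4 in the Mat KO libraries, against 300 and 133 CPM in the WT libraries, and these overlapped. For Klf2 the median cell had 16.7 and 0 CPM in the Mat KO libraries, against 55.6 and 11.3 CPM in the WT libraries. With every cell thinned to 8800 UMIs, which left out 12 Mat KO and 6 WT cells, the share of cells with Klf6 was 82.9% and 89.98% in the Mat KO libraries, against 74.1% and 69.4% in the WT libraries, an order not visible in the unthinned shares of 93.2% and 91.7% in Mat KO and 91.7% in each WT library.

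**Figure D2:**
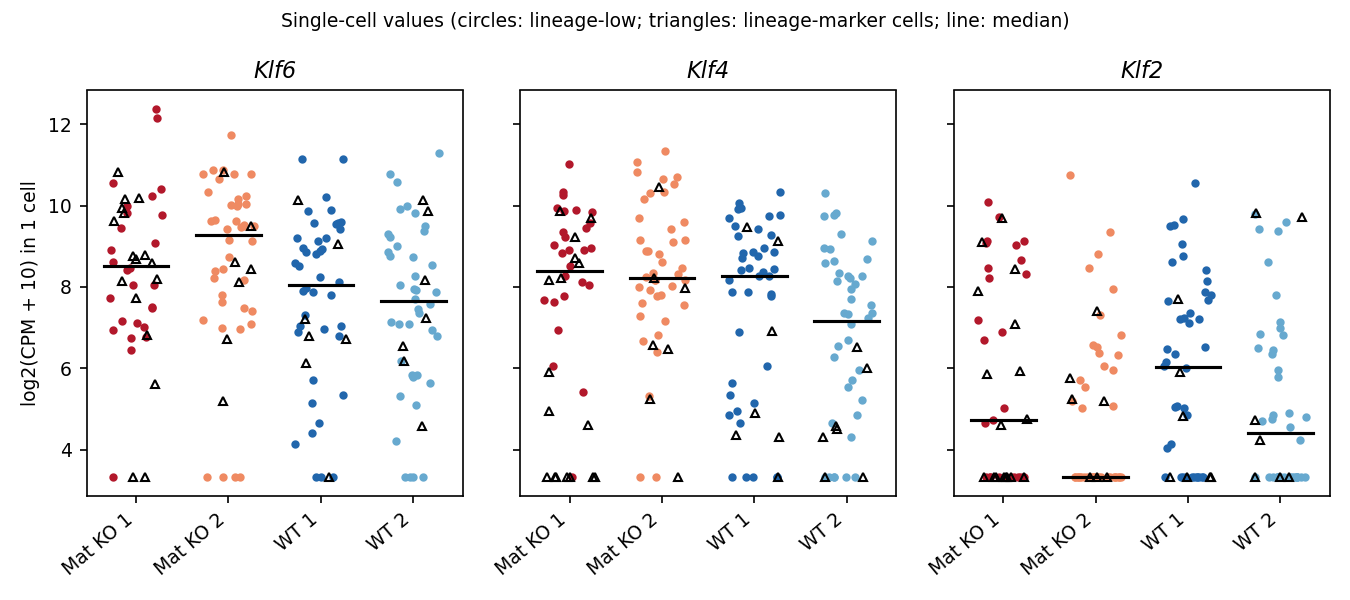
Klf6, Klf4 and Klf2 in single cells, as log2(CPM + 10), by library, with Mat KO left of WT. Circles are lineage-low cells, triangles are cells with genes of a mature lineage, and lines are medians over all kept cells. Most cells have Klf6, whose median is at 359 and 615 CPM in the Mat KO libraries and at 255 and 191 CPM in the WT libraries, while many cells lie at the bottom for Klf2.

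Lineage-low cells had more of most Klf genes than cells with mature-lineage genes. Klf6 was at 943 and 797 CPM in lineage-low cells of the Mat KO libraries and at 396 and 360 CPM in those of the WT libraries. The lineage-marker cells had 471 and 382 CPM in the Mat KO libraries and 206 and 151 CPM in the WT libraries. On the log2(CPM + 10) scale lineage-low cells were higher by 1.03 ± 0.12 (SD over 4 libraries), and within each cell class the Mat KO libraries stood above the WT libraries.

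Klf4 showed a wider gap. Lineage-low cells had 565 and 645 CPM in the Mat KO libraries and 429 and 250 CPM in the WT libraries, against 236 and 191 CPM and 98.3 and 33.2 CPM in lineage-marker cells of those libraries, a difference of 1.88 ± 0.57. The difference was 1.45 ± 1.19 for Klf2, 1.51 ± 0.92 for Klf10, 1.42 ± 0.38 for Klf9 and 0.42 ± 0.20 for Klf13. In all, 7 of the 9 genes were higher in lineage-low cells in 4 of 4 libraries, beside 19.1% of the 10663 genes tested. The exact 2-sided sign-flip permutation test over the 4 libraries gave p = 0.125 for each of the 7, the smallest p it allows. The 9 genes were chosen with their levels in these cells known, so nothing is read from this count or these p-values. The 7 include Klf12, whose lineage-marker cells held 1 UMI in all. Klf3 was higher in lineage-low cells in 2 libraries and Klf7 in 3. The classes differed in depth as well. Lineage-low cells had median totals of 35326 and 23651 UMIs in the Mat KO libraries and 51630 and 49939 in the WT libraries, against 23841 and 52128 and then 54555 and 121762 UMIs in lineage-marker cells, and the part of depth in the class difference was not tested.

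Between genotypes, UMIs summed per library were compared across all genes with edgeR's quasi-likelihood test. At a Benjamini-Hochberg adjusted p under 0.05, 8 genes (0.075%) were higher in Mat KO cells and 0 (0%) lower, and none of the 9 Klf genes was among them. At an unadjusted p under 0.05 the test gave 834 genes (7.82%), of which 480 (4.5%) were higher in Mat KO, among them 4 of the 9 (Klf4, Klf6, Klf9 and Klf13). DESeq2 called 98 genes higher and 22 lower. Both Mat KO libraries lay above both WT libraries for 6 of the 9 genes, beside 17.8% of all genes tested, and below them for 1, beside 21.3%. Their log2 fold changes had a median of 0.96, against -0.01 over all genes tested, and 8 of 9 were above 0, against 49.4% of all genes. The 9 were chosen with this contrast known, so nothing is read from these counts. In libraries of summed cells, more cells with a transcript and more transcript per cell are not separated.

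Klf6 had the smallest p of the 9. Its log2 fold change, Mat KO over WT, was 1.10 (SE 0.23, edgeR adjusted p = 0.176, unadjusted p = 0.000626), about 2.14-fold, and it ranked 38 of 10663 genes by p. The value stayed between 0.82 and 1.26 under 13 alternative settings. DESeq2's Wald test put it past the threshold with an adjusted p of 0.000257. So did edgeR without Mat KO 1 (adjusted p = 0.0461) and without Mat KO 2 (adjusted p = 0.0186), where the lone Mat KO library is assumed to vary like the WT libraries. It did not pass without WT 1 (edgeR adjusted p = 0.419) or without WT 2 (edgeR adjusted p = 0.702). In lineage-low cells the log2 fold change was 1.26 (SE 0.20, edgeR adjusted p = 0.0702), and after thinning it was 0.82 (SE 0.25, edgeR adjusted p = 0.420).

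Klf13 had a log2 fold change of 0.96 (SE 0.28, edgeR adjusted p = 0.406), and it passed with DESeq2 (adjusted p = 0.0368) and without Mat KO 1 (edgeR adjusted p = 0.0178). Klf9 had 0.96 (SE 0.38, edgeR adjusted p = 0.590) and Klf4 had 0.74 (SE 0.32, edgeR adjusted p = 0.608). These 4 genes, Klf6 included, kept a positive value under every alternative setting run, and Klf4 and Klf9 did not pass in any. Single libraries moved their size. Klf9 was at 0.33 without Mat KO 2, Klf13 at 0.60 without Mat KO 2, and Klf4 at 1.27 without WT 1 and 0.35 without WT 2. Klf3 had 1.03 (SE 0.57, edgeR adjusted p = 0.716) and Klf7 had 1.06 (SE 1.09, edgeR adjusted p = 0.871), with standard errors that leave their size uncertain. Klf3 was at 0.64 without WT 1 and 1.55 without WT 2, and Klf7 at 0.56 without WT 1 and 1.79 without WT 2.

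Klf2 and Klf10 did not separate the genotypes. Klf2 had a log2 fold change of 0.16 (SE 0.47, edgeR adjusted p = 0.973), which turned to -0.20 after thinning, to -0.34 without Mat KO 1 and to -0.41 without WT 2. It was 1.09 without WT 1. Klf10 had 0.25 (SE 0.32, edgeR adjusted p = 0.911) and turned to -0.15 without WT 2. Klf12 was the only 1 of the 9 with both Mat KO libraries below both WT libraries, at -2.38 (SE 1.24, edgeR adjusted p = 0.699). Its counts are too low for a firm value, and thinning left it and Klf7 below the filter.

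**Figure D3:**
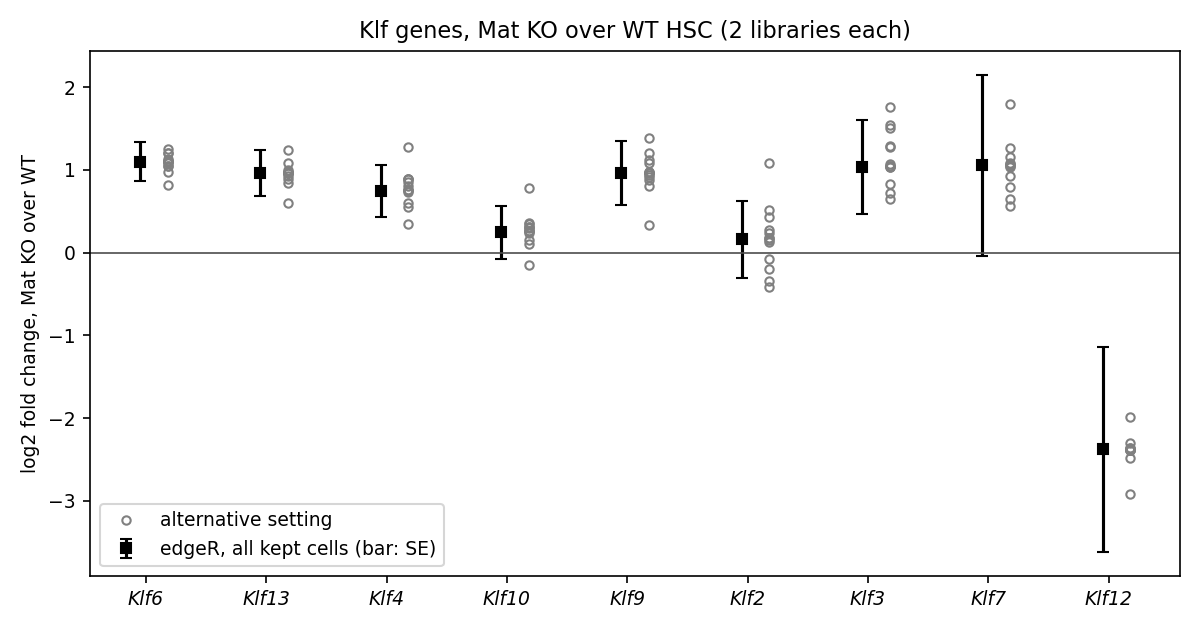
Log2 fold change of each Klf gene, Mat KO over WT, with 2 libraries per genotype. Squares are edgeR's values on all kept cells with the standard error as bars, and open circles are the alternative settings. Klf6 is at 1.10 with alternatives between 0.82 and 1.26, Klf2 has values on both sides of 0, and Klf12 is at -2.38.

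Whether Klf6 differed between genotypes apart from Klf2 and Klf4 was asked with the ratio of Klf6 to the sum of the other two within each library. The log2 ratio was 0.29 and 0.15 in the Mat KO libraries, against -0.63 and 0.24 in the WT libraries. WT 2 fell between the Mat KO libraries and WT 1 stood alone below. The difference, Mat KO minus WT, was 0.41 (exact 2-sided permutation p = 0.667, and with 2 libraries against 2 the test cannot go below 0.33). The genotypes no longer overlapped after thinning, where the ratio was 0.09 and 0.06 in the Mat KO libraries against -0.20 and -0.21 in the WT libraries, a difference of 0.28 (exact permutation p = 0.33). Unthinned and without WT 1 the difference was -0.02. The log2 ratios also parted with the mean of cell CPM, without leading cells or without barcode position 16. They overlapped in lineage-low cells and in cells with at least 2000 genes. In thinned cells the log2 fold change was 0.82 for Klf6, 0.85 for Klf4 and -0.20 for Klf2. Against each gene alone, unthinned, the genotypes overlapped. Klf6 per UMI of Klf4 was 1.753 and 1.316 in Mat KO, against 0.9739 and 1.575 in WT. Per UMI of Klf2 it was 4.05 and 6.925, against 1.935 and 4.665.

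Across the cells of a library, Klf6 had coefficients on both sides of 0 with Klf4. With Klf2 they were positive in 3 of 4 libraries, in 4 of 4 after thinning and in 2 of 4 in lineage-low cells. In lineage-low cells they were 0.32 and -0.14 in the Mat KO libraries, against 0.28 and -0.0086 in the WT libraries. The Spearman coefficient between Klf6 and Klf4 over 44 to 48 cells was 0.03 and -0.18 in the Mat KO libraries, against 0.30 and -0.12 in the WT libraries, with a mean of 0.01. Between Klf6 and Klf2 it was 0.20 and -0.16 in the Mat KO libraries, against 0.33 and 0.14 in the WT libraries, with a mean of 0.13. Klf2 and Klf4 had 0.21 and 0.17 in the Mat KO libraries, against 0.33 and 0.24 in the WT libraries, positive in 4 of 4 with a mean of 0.23.

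After thinning the order of the pairs changed. Thinning also left out 18 cells, and the part of depth in the change was not tested. In cells thinned to 8800 UMIs, Klf6 and Klf2 had 0.13 and 0.10 in the Mat KO libraries, against 0.22 and 0.23 in the WT libraries, positive in 4 of 4 with a mean of 0.17. Klf2 and Klf4 had 0.20 and -0.07 in the Mat KO libraries, against 0.25 and 0.08 in the WT libraries, with a mean of 0.11. Klf6 and Klf4 had 0.04 and -0.12 in the Mat KO libraries, against 0.11 and -0.09 in the WT libraries, so this pair alone of the 3 stayed near 0 on average in both settings. Cells of a library share their preparation and vary widely in depth, and coefficients of this size in sparse counts are descriptions.

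Of the 36 pairs of the 9 genes, 10 had positive coefficients in all 4 libraries and 0 had negative ones in all 4. The matching shares over all gene pairs were not computed, so nothing about the family is read from these counts. The pair of Klf4 and Klf9 had a mean of 0.25, that of Klf4 and Klf10 a mean of 0.24 and that of Klf4 and Klf13 a mean of 0.20. Klf9 and Klf13 averaged 0.23 and Klf10 and Klf13 averaged 0.19. The 1 pair with Klf6 that was positive in all 4 libraries was with the sparse Klf12 (mean 0.07). In thinned cells the pairs positive in all 4 libraries were Klf4 with Klf9, Klf4 with Klf13, Klf9 with Klf13 and Klf2 with Klf6, while Klf4 with Klf10 was positive in 3 and Klf10 with Klf13 in 2.

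**Figure D4:**
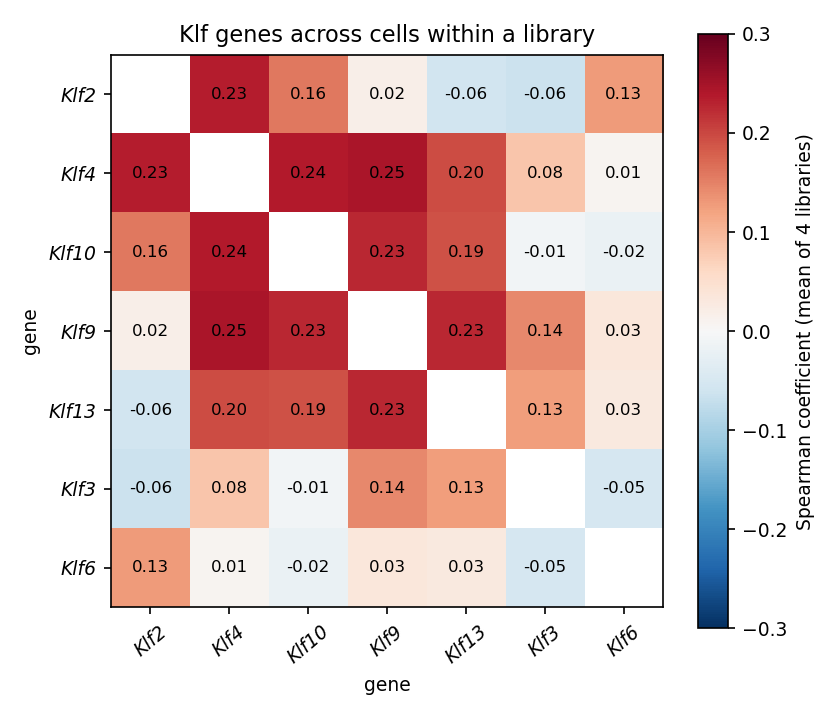
Spearman coefficients between pairs of the 7 best-detected Klf genes across the cells of a library, as the mean of the 4 libraries. Colour and printed number both give the mean. Klf2 with Klf4 is at 0.23, while Klf6 with Klf4 is at 0.01 and Klf6 with Klf2 is at 0.13, all without thinning.

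Joint detection was broad all the same. Klf2, Klf4 and Klf6 were all seen in 90 of the 188 cells, and Klf4 and Klf6 without Klf2 in 62. Klf6 was seen alone of the 3 in 13 cells and Klf4 alone in 4, while 3 cells had none. The median cell held 5 and 6 of the 9 genes in the Mat KO libraries, against 6 and 5.5 in the WT libraries. The cells highest in Klf6 showed both situations. The top Klf6 cell of Mat KO 1 had 5320 CPM of Klf6 with 754 CPM of Klf4 and 310 CPM of Klf2, and that of Mat KO 2 had 3433 CPM of Klf6 with 277 CPM of Klf4 and no Klf2. The top cell of WT 1 had 2245 CPM of Klf6 with 330 CPM each of Klf4 and Klf2, and that of WT 2 had 2501 CPM of Klf6 with neither. That WT 2 cell held only 4798 UMIs, so a low level of either gene could be missed. The second cell of WT 2, with 189500 UMIs, had 385 CPM of Klf4 and 15.8 CPM of Klf2.

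The genes whose cell-to-cell pattern was most like each of the 3 were then listed. They were ranked by the mean Spearman coefficient over the 4 libraries among 4995 genes seen in at least 20% of cells. For Klf2 the first 8 were Dusp1 (0.34), Nfkbid (0.34), Fos (0.34), Jun (0.31), Txnip (0.31), Gem (0.30), Egr1 (0.30) and Junb (0.30). For Klf4 they were Nr4a2 (0.40), Hes1 (0.40), Rps3a1 (0.39), Fosb (0.39), Jund (0.38), Dst (0.37), Tiparp (0.37) and Nr4a1 (0.37). Many of these, such as Fos, Jun, Egr1 and Nr4a1, are immediate early genes, which cells induce within minutes of a stimulus without new protein synthesis. The means hide unlike spreads between libraries. With Klf4, Dst ran from 0.020 to 0.642 and Tiparp from 0.335 to 0.411.

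For Klf6 the first 8 were Ptprc (0.33), Cd44 (0.31), Ptpre (0.28), Rgs2 (0.28), Suco (0.26), Aldoa (0.25), Fxyd5 (0.25) and Anxa2 (0.25). Between libraries Rgs2 ran from 0.00014 in Mat KO 1 to 0.552 in WT 1, while Anxa2 ran from 0.243 to 0.250. Ptprc encodes the leukocyte surface phosphatase CD45 and Cd44 a hyaluronan receptor. A list of 20 immediate early genes had 19 members among those compared, 0.38% of all. Of the 8 nearest genes, 6 for Klf2, 4 for Klf4 and 0 for Klf6 were on the list, and of the 100 nearest, 12, 11 and 3. The list's median coefficient was 0.21 with Klf2, 0.25 with Klf4 and 0.07 with Klf6, beside medians over all genes of -0.0022, -0.0024 and -0.05. In cells thinned to equal depth it was 0.21, 0.23 and 0.04. Among all genes Klf4 ranked 24 and Klf6 ranked 302 for likeness to Klf2. For likeness to Klf6, Klf2 ranked 186 and Klf4 ranked 1380.

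Summed over the list, immediate early genes followed the same division. Their summed CPM per cell had Spearman coefficients with Klf4 of 0.57 and 0.37 in the Mat KO libraries, against 0.20 and 0.45 in the WT libraries. With Klf2 they were 0.48 and 0.47 in the Mat KO libraries, against 0.19 and 0.29 in the WT libraries. With Klf6 they were 0.22 and -0.04 in the Mat KO libraries, against 0.23 and -0.01 in the WT libraries, on both sides of 0. These coefficients and the rankings above were taken over all kept cells, lineage-marker cells included. In lineage-low cells the list summed to 19766 and 13891 CPM in the Mat KO libraries, against 19484 and 15198 CPM in the WT libraries. Over all kept cells it summed to 12717 and 11030 CPM, against 16656 and 12291 CPM. The part of cell class in this division was not tested.

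Klf10 and Klf9 stood with Klf2 and Klf4 here, with positive coefficients in all 4 libraries. These were 0.22 to 0.34 for Klf10 and 0.13 to 0.34 for Klf9. Klf13 ranged from -0.22 to 0.08. With the long-term HSC list Klf4 again had the highest mean, at 0.55 and 0.26 in the Mat KO libraries against 0.24 and 0.43 in the WT libraries, and Klf9 had 0.24 and 0.35 against 0.18 and 0.42. Klf6 ranged from 0.10 to 0.23 with that list. It had negative coefficients with a list of 17 cell cycle genes in all 4 libraries, at -0.12 and -0.16 in the Mat KO libraries against -0.06 and -0.46 in the WT libraries. Klf9 had -0.0022 and -0.031 with that list in the Mat KO libraries, against -0.0065 and -0.13 in the WT libraries. The sparse Klf12 was also negative with that list in all 4. The mean was -0.20 for Klf6, -0.16 for Klf2 and -0.14 for Klf4. The cell cycle list was added after the data had been seen. It summed to 3123 and 2254 CPM over all kept cells of the Mat KO libraries, against 1229 and 1021 CPM in their lineage-low cells. In the WT libraries it summed to 2727 and 3111 CPM, against 1907 and 2258 CPM. With total UMIs per cell, Klf6 had 0.07 and -0.05 in the Mat KO libraries, against -0.13 and -0.30 in the WT libraries. The parts of cell class and depth in these coefficients were not tested.

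**Figure D5:**
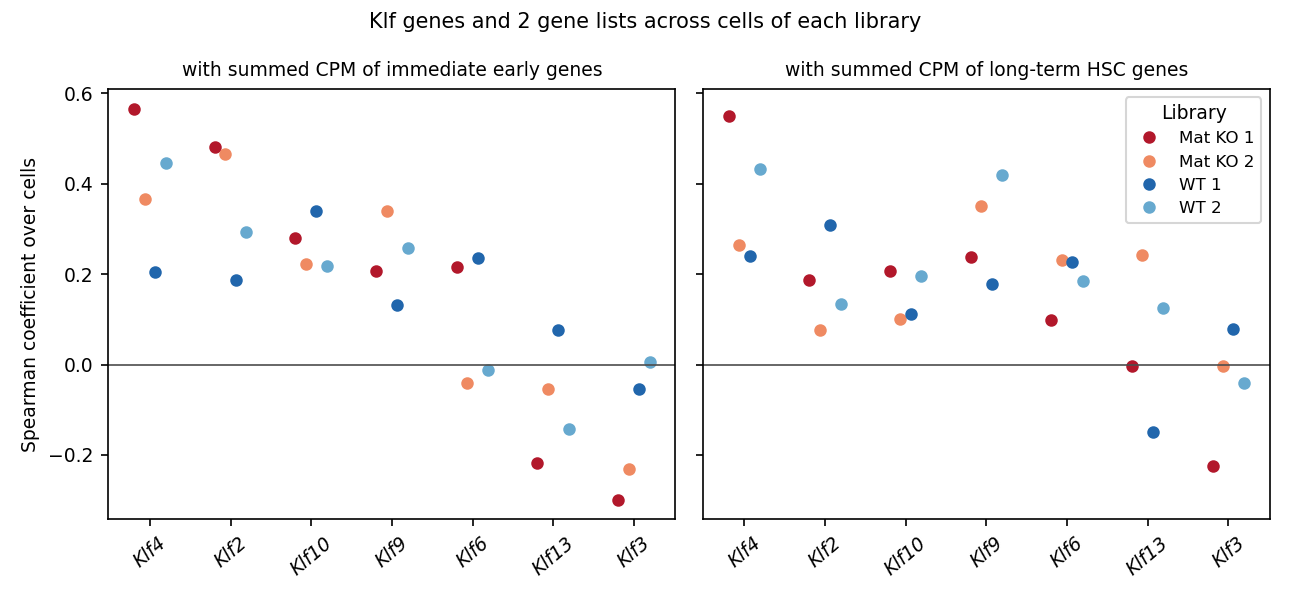
Spearman coefficients across the cells of each library between 7 Klf genes and the summed CPM of immediate early genes (left) or of long-term HSC genes (right). Points are libraries, with Mat KO left of WT for each gene. Klf4 and Klf2 are above 0 with immediate early genes in all 4 libraries, while Klf6 has values of 0.22 and -0.04 in Mat KO and of 0.23 and -0.01 in WT.

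The immediate early genes as a group overlapped between genotypes. Their summed level was 12717 and 11030 CPM in the Mat KO libraries, against 16656 and 12291 CPM in the WT libraries, and WT 2 fell between the Mat KO libraries. Of the 20 genes, 0 passed edgeR's test in either direction, 17 had a negative and 3 a positive log2 fold change, and the median was -0.25. Fos, a subunit of the AP-1 factor, had 2668 and 1732 CPM in the Mat KO libraries, against 4406 and 2793 CPM in the WT libraries, a log2 fold change of -0.68 (SE 0.24, edgeR adjusted p = 0.538). Fosb, another AP-1 subunit, had a log2 fold change of 0.32 (SE 0.22, edgeR adjusted p = 0.778).

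Transcripts were detected for all listed genes whose proteins Kruppel-like factors recruit or whose proteins degrade them. Of 10 such genes 0 passed the edgeR test in either direction, 8 had a positive log2 fold change, and the median was 0.17. Crebbp, a histone acetyltransferase, was highest with 143 and 236 CPM in the Mat KO libraries, against 154 and 184 CPM in the WT libraries, and the genotypes overlapped. Ctbp1, the corepressor of Klf3 and Klf12, had 181 and 121 CPM in the Mat KO libraries, against 98.3 and 189 CPM in the WT libraries, which also overlapped.

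Of 7 genes of the ERK5 and MEF2 route to Klf2 and Klf4, 0 passed and the median log2 fold change was 0.23. Map3k2, a kinase upstream of ERK5, had 114 and 182 CPM in the Mat KO libraries, against 22.3 and 60.5 CPM in the WT libraries, a log2 fold change of 1.87 (SE 0.49, edgeR adjusted p = 0.304). The Mat KO libraries lay above the WT libraries. Mef2c, the most abundant of the 7, had 250 and 218 CPM in the Mat KO libraries, against 242 and 263 CPM in the WT libraries.

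Of 13 genes known as targets of Klf2, Klf4, Klf6 or Klf10 in other cell types, 12 were tested, 0 passed, 10 had a positive log2 fold change and the median was 0.39. S1pr1, an egress receptor and a Klf2 target in T cells, had 95.8 and 103 CPM in the Mat KO libraries, against 93.9 and 74.1 CPM in the WT libraries. Cdkn1a, the cell cycle inhibitor p21, had 356 and 857 CPM in the Mat KO libraries, against 419 and 463 CPM in the WT libraries, and overlapped. Of the other Klf and Sp genes 9 of 17 could be tested, 0 passed, 5 had a positive log2 fold change and the median was 0.34.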

How the data were processed

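The deposited tables hold unnormalized UMI counts, genes (refGene names) by barcodes. The build mm10, HTSeq and TopHat2 2.0.12 are listed in the submitters' processing notes with no role for each. How reads were assigned to strands or overlapping genes is not stated there. Spike-in rows (95 of 24506) stayed out of library sizes and tests. The depth per library was 1768647 to 3253608 UMIs, and cells held 2229 to 287142. UMI counts of the same molecule may be inflated, so intervals and floors (3 counts) cover counting error only. Doublets were not called, as single cells had been picked by hand. Counts were summed over kept cells of a library and tested across genes with edgeR 4.0.16 (filterByExpr, TMM, glmQLFit and glmQLFTest) in R 4.3.3 with Benjamini-Hochberg adjustment, on all 4 libraries with genotype as the only term. The standard errors given with edgeR values were derived as the absolute log2 fold change over the square root of the test's F statistic. The scripts were tested on simulated data. DESeq2 1.42.0 was an alternative. Other alternatives were RLE size factors, a filter of 10 UMIs, a replicate block, lineage-low cells, at least 2000 genes, thinning to 8800 UMIs (170 cells), removal of the leading cell, and leaving out each library. Removal of the cell at barcode position 16 was added after seeing the data, because it led Klf6 in 2 libraries. Cell-level coefficients were computed on CPM within each library. The 8 genes nearest in pattern were named for Klf2, Klf4 and Klf6, and the most abundant or lowest-p genes of each list. 1 gene that this rule picks is not reported here. The members and the lists were chosen with earlier results of these data known.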

Additional observations from a re-analysis of the deposited data

How the results depend on the processing

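The count of genes called between Mat KO and WT moved most. Against 8 in the edgeR fit, it was 120 with DESeq2, 43 with a filter of 10 UMIs, 1 in lineage-low cells, 5 in cells with at least 2000 genes, 0 with the leading cell of each gene removed (744 at an unadjusted p under 0.05) and 14 without barcode position 16. Leaving out 1 library gave 17 to 123. The replicate block gave 109, and Klf6 had an adjusted p of 0.0118 there. Deviations of same-numbered libraries from their genotype means had r = -0.0022, the same value for both pairs by construction. This value cannot exclude a shared preparation. Klf2 had a log2 fold change of -0.20 after thinning, -0.072 without position 16, and -0.41 to 1.09 over the fits that leave out a library. Klf10 had -0.15 to 0.78 over those fits. The log2 ratio of Klf6 to Klf2 plus Klf4 differed by -0.017 to 0.84 when 1 library was left out. The mean coefficient of Klf2 with Klf4 was 0.11 in thinned and 0.30 in lineage-low cells, and 0.17 in Mat KO 2 and 0.33 in WT 1 alone. That of Klf2 with Klf6 was -0.16 in Mat KO 2 and that of Klf4 with Klf6 was 0.30 in WT 1. The cause of these shifts was not tested. Of 108 alternative values of the Klf levels, 80 stayed within 1 SD of the libraries. Klf7 and Klf12 rest on few UMIs and could not be tested after thinning.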

Other observations

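Klf11, a relative of Klf10 that is also linked to TGF-beta signalling and was not among the 9 genes, had 26 and 59 UMIs in the Mat KO libraries, against 97 and 145 UMIs in the WT libraries. This is 13.7 and 33.4 CPM in the Mat KO libraries, against 30.5 and 44.6 CPM in the WT libraries, and the genotypes overlapped. Klf5, an epithelial factor, had 21 and 1 UMIs in the Mat KO libraries, against 15 and 6 UMIs in the WT libraries, all but 1 from cells with genes of a mature lineage. Klf8 had 33 and 9 UMIs in the Mat KO libraries, against 18 and 16 UMIs in the WT libraries, with 87.9% of those in Mat KO 1 from 1 cell.

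The pair of Klf9 and Klf10 varied most between libraries among the better-detected genes. Its Spearman coefficient across cells was 0.19 and -0.15 in the Mat KO libraries, against 0.18 and 0.68 in the WT libraries. Among cell cycle genes, 4 of the 6 Mcm genes, which encode the replication helicase, had both Mat KO libraries below both WT libraries, beside 21.3% of all genes tested, a feature picked after the values were seen. Mcm2, the furthest apart, was at 35.3 and 15.8 CPM in the Mat KO libraries, against 89.5 and 102 CPM in the WT libraries. Its log2 fold change was -1.88 (SE 0.49, edgeR adjusted p = 0.304). Mki67, a marker of cycling cells, had 724 and 457 CPM in the Mat KO libraries, against 382 and 480 CPM in the WT libraries, so the list did not move one way: 8 of 17 log2 fold changes were positive and the median was -0.05.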
